A study of Mus musculus with 2 samples.

Results

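The miR-17-92 cluster is a group of 6 microRNA genes, Mir17, Mir18, Mir19a, Mir20a, Mir19b-1 and Mir92-1, carried by the long non-coding RNA Mir17hg. The 6 genes were taken by name: their Ensembl identifiers were looked up in the mouse annotation, and all 6 were found among the 1973 gene rows of both tables. The tables come from small RNA sequencing of whole intestine of mouse embryos of strain B6NCrl at 14.5 days of development, in 2 libraries that the labels call biological replicates. By their labels the samples are intestines of lone pups, yet the sex is entered as male and female pooled, and these entries were not reconciled. The tissue of replicate 1 was collected on day 17 of the month and that of replicate 2 on day 15, so collection day and replicate cannot be told apart. There is no second genotype, treatment or age, so the data describe levels and the spread between these 2 libraries.

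MicroRNAs are cut from hairpins in longer transcripts, and the arm that is loaded into an Argonaute protein (the guide) pairs with messenger RNAs mainly through its seed, bases 2 to 8 from its 5′ end. The miR-17-92 transcript is known as a target of MYC and as a promoter of proliferation and survival in developing tissues and tumours. Its members fall into 4 seed groups: miR-17 and miR-20a are known to repress cell cycle inhibitors and the pro-apoptotic gene Bim, miR-18a carries a closely related seed, miR-19 has a seed of its own, and miR-92a belongs to the miR-25 family. Related clusters lie within the gene Mcm7 (miR-106b-25) and on the X chromosome (miR-106a-363).

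The guide sequences of the 6 genes are shown because the seed, in capitals, sets the groups used below; they are the RefSeq mature sequences of build GRCm38.p6, which held all 6 genes.
Mir17 (miR-17-5p): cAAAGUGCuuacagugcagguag
Mir20a (miR-20a-5p): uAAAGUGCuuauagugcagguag
Mir18 (miR-18a-5p): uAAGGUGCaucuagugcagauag
Mir19a (miR-19a-3p): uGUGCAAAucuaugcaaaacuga
Mir19b-1 (miR-19b-3p): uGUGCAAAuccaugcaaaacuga
Mir92-1 (miR-92a-3p): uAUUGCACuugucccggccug
Counting from 1 at the 5′ end, the guides of Mir17 and Mir20a differed at 2 positions (C1U and C12U), both outside the seed, and those of Mir19a and Mir19b-1 at 1 position (U11C). The guides of Mir17 and Mir18 differed at 6 positions, of which A4G falls in the seed. Which arm was taken as the guide is textbook knowledge and not a measurement here, because a table row sums the reads of both arms of a hairpin.

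The cluster occupied 836 bases of GRCm38 chromosome 14 (115043671 to 115044506, plus strand). Mir17hg (ENSMUSG00000089726.2, 115042879 to 115046727) has 1 annotated transcript of 2 exons, and all 6 hairpins lie in the second exon. In order along the transcript they are Mir17 (ENSMUSG00000065508.1, 115043671 to 115043754), Mir18 (ENSMUSG00000065403.1, 115043851 to 115043946), Mir19a (ENSMUSG00000065416.1, 115044000 to 115044081), Mir20a (ENSMUSG00000065442.1, 115044157 to 115044263), Mir19b-1 (ENSMUSG00000076256.1, 115044305 to 115044391) and Mir92-1 (ENSMUSG00000076062.1, 115044427 to 115044506). The hairpins were 80 to 107 bases long, with a GC content from 43.7% (Mir19b-1) to 47.5% (Mir92-1), and 35 to 96 bases separated each from the next.

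Levels are given as CPM, the reads on the gene's own strand per 1000000 such reads in all gene rows. Each read is taken as a whole small RNA, so no scaling by length was made. The totals were 15090126 in replicate 1 and 3903472 in replicate 2. Intervals are Wilson 95% intervals and cover counting error only, since the tables record no molecular identifiers that would set PCR copies apart. The tissue was checked against microRNAs known from its cell types. Those of intestinal epithelium (4 of 4 detected, where detected means 10 or more counts in each library) summed to 8980 CPM in replicate 1 and to 11362 CPM in replicate 2, those of smooth muscle (2 of 2) to 171529 and 149642 CPM and the endothelial gene Mir126a to 23478 and 24174 CPM. Pancreatic markers (3 of 4 detected) summed to 3502 and 8071 CPM, of which Mir375, a gene that endocrine cells of the gut also express, gave 3497 and 8059 CPM; Mir217 had 4.44 and 7.94 CPM and Mir216b 0.861 and 3.07 CPM. Neuronal markers (2 of 6) summed to 2047 and 2324 CPM, of which Mir137 gave 2042 and 2316 CPM. Liver Mir122 stood at 39.8 and 51.0 CPM and striated muscle markers (1 of 5) summed to 11.5 and 9.99 CPM. The miR-200 genes of epithelium (5 of 5) summed to 35028 and 42892 CPM, erythroid markers (3 of 3) to 258 and 409 CPM and leukocyte markers (3 of 3) to 448 and 557 CPM. The fractions count listed markers that had a gene row, which were 3 of 4 for leukocytes, 6 of 7 for neurons and 5 of 6 for striated muscle. Of the neuronal markers Mir124a-2, Mir124a-3 and Mir9-2 were at 0 in both libraries, as was Mir133a-1 of striated muscle. Multiply aligned reads were credited to no gene, and sequence sharing among the markers was not examined, so a 0 need not mean absence. In whole tissue, fewer cells of a type and less RNA per cell cannot be told apart.

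The 6 miR-17-92 genes together took about 5% of the microRNA counts, and with library totals this share differed between the libraries by less than its counting interval. Their summed share was 5.14% (775370 counts, interval 5.13 to 5.15%) in the first replicate and 5.13% (200411 counts, interval 5.11 to 5.16%) in the second, a mean of 5.14 ± 0.00289% (SD, n = 2). The summed share of replicate 2 over replicate 1 was -0.001 on the log2 scale with library totals. With TMM the shares were 5.29% and 4.99% (log2 -0.08) and with DESeq2's size factors 5.31% and 4.97% (log2 -0.09), so the near equality rests on the scaling. With library totals the marker sums given above moved between -0.21 (striated muscle) and 1.20 (the pancreatic list, carried by Mir375). The part of these cell types in the cluster's level was not tested.

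Within this sum the genes were far from equal. Mir17, the first hairpin and the one that names the miR-17 seed family, was the most abundant, with 30183 CPM in replicate 1 and 30530 CPM in replicate 2 (30357 ± 246). It ranked 7 among all genes in both libraries. Mir20a, which carries the same seed, stood at 12260 and 12039 CPM (12149 ± 157; ranks 18 and 19). Mir18 and Mir19a lie between them in the transcript.

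Mir18 had 5536 and 5090 CPM (5313 ± 315) in replicates 1 and 2. Mir92-1, the last hairpin, had 3316 and 3583 CPM (3450 ± 189). Mir18 ranked 40 and 41 among all genes and Mir92-1 54 and 55.

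The miR-19 genes were lower by more than an order of magnitude than each of the other 4. Mir19a had 917 and 266 counts, or 60.8 and 68.1 CPM (64.5 ± 5.22). Mir19b-1 had 399 and 122 counts, or 26.4 and 31.3 CPM (28.8 ± 3.40). Their ranks lay between 220 and 248. No read lay on the strand opposite any of the 6 genes in either library; taking 3 counts as the limit, the level there can be at most 0.199 CPM in replicate 1 and, at its lower depth, 0.769 CPM in replicate 2.

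**Figure D1:**
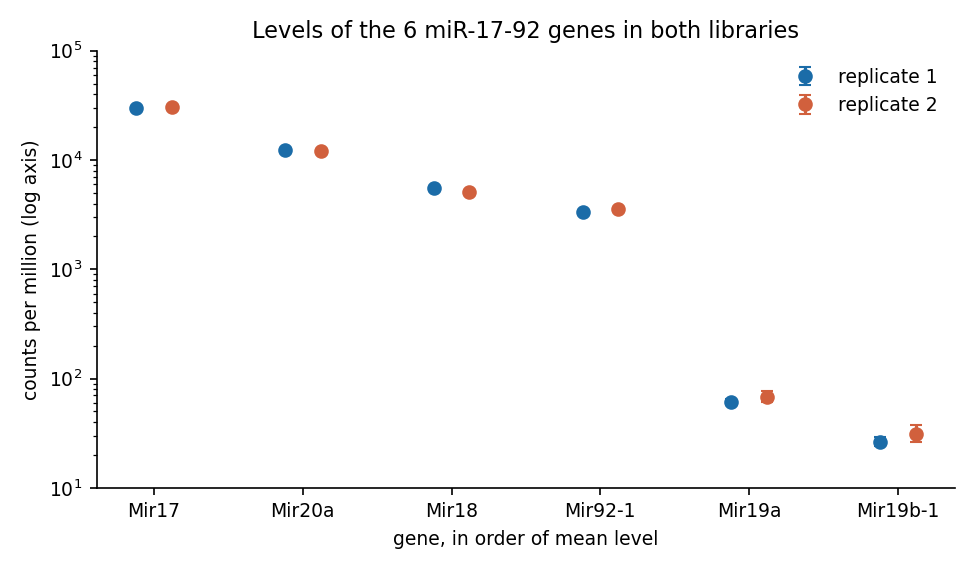
CPM of each gene on a log axis in replicates 1 and 2, with Wilson 95% counting intervals, which are smaller than the points for the 4 abundant genes. Mir17 lies near 30357 CPM and Mir19b-1 near 28.8 CPM, and the order is the same in both libraries.

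The order of levels, Mir17, Mir20a, Mir18, Mir92-1, Mir19a and Mir19b-1, was the same in both libraries, and each gene differed from its neighbour in that order by more than the ratio itself differed between the libraries. Mir17 exceeded Mir20a 2.50-fold (log2 1.30 in replicate 1 and 1.34 in replicate 2). Mir20a exceeded Mir18 2.29-fold (1.15 and 1.24), and Mir18 exceeded Mir92-1 1.54-fold (0.74 and 0.51). The last of these was the least separated pair, as its log2 ratio of 0.62 compares with a gap of 0.23 between the libraries. The widest step lay between Mir92-1 and Mir19a, at 53.6-fold (log2 5.77 and 5.72). Mir19a exceeded Mir19b-1 2.24-fold (1.20 and 1.12), and the ends of the order, Mir17 and Mir19b-1, lay 1142-fold apart in replicate 1 and 977-fold in replicate 2. No test of these ratios over samples was run, because an exact test over 2 libraries cannot reach a p of 0.05. Ligation and PCR act unequally on different small RNAs, so these are ratios of reads, not of molecules. Mir92-1 and Mir19b-1 each share their guide with a gene of the X-linked cluster, and reads that fit both places were credited to neither. Their levels can thus be too low, and the excess of Mir18 over Mir92-1 and of Mir17 and Mir19a over Mir19b-1 too wide. Such a loss can act in both libraries alike, so their likeness does not settle these places in the order. Its size was not tested.

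Expressed as shares of the cluster, Mir17 held 59.1 ± 0.511% of the counts (58.7 and 59.5% in replicates 1 and 2) and Mir20a 23.7 ± 0.292% (23.9 and 23.4%). These 2 genes, whose guides share a seed, thus held 82.8 ± 0.219% of the cluster's counts. Both arms of a hairpin are counted, so this is a share of genes and not of reads that carry the seed. Mir18 held 10.3 ± 0.607% (10.8 and 9.91%) and Mir92-1 6.72 ± 0.371% (6.45 and 6.98%). The miR-19 genes together held 0.182 ± 0.0169%, of which Mir19a gave 0.125 ± 0.0102% and Mir19b-1 0.0562 ± 0.00666%. The level did not run along the transcript: the miR-19 hairpins are the third and the fifth, and each has a hairpin with a mean of at least 6.72% of the counts on either side.

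**Figure D2:**
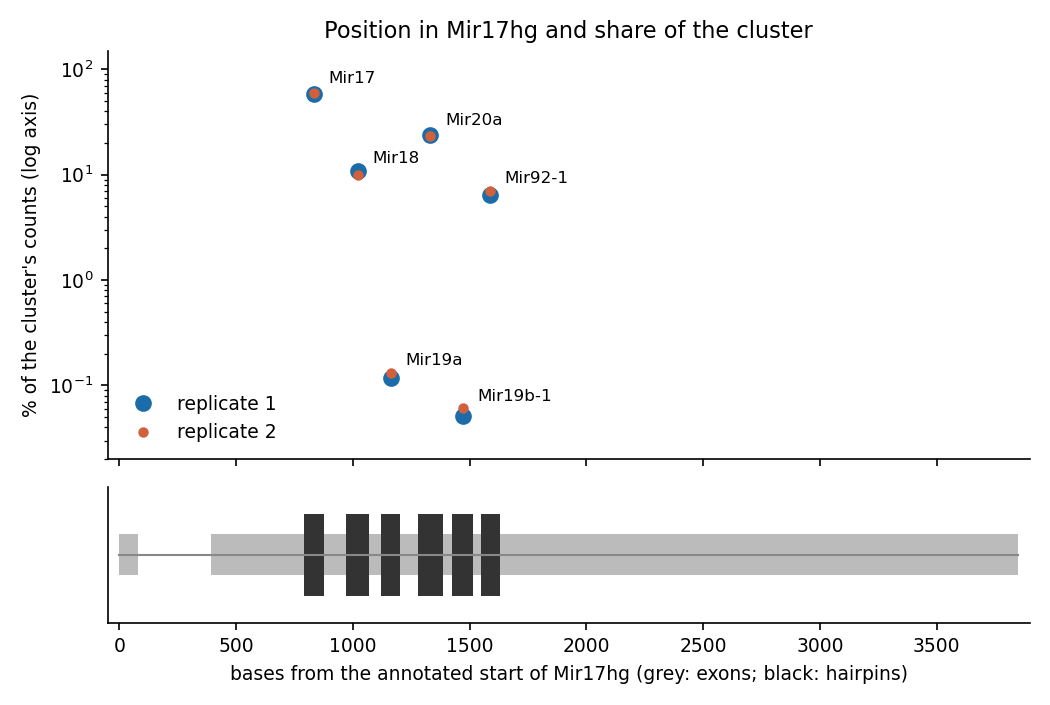
Upper panel: share of the cluster's counts (log axis) against the position of each hairpin in bases from the annotated start of Mir17hg, for replicates 1 and 2. Lower panel: exons of Mir17hg in grey and the 6 hairpins in black, to scale; Mir19a and Mir19b-1, with 0.125% and 0.0562%, lie between hairpins that hold a mean of 6.72% or more.

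Multiply aligned reads, 26.5% of the table in replicate 1 and 26.6% in replicate 2, were credited to no gene, so each hairpin was compared with all other annotated microRNA hairpins, in either orientation. Mir19b-1 and Mir92-1 each shared their whole guide with another hairpin, Mir19b-2 and Mir92-2 of the X-linked cluster. The 4 hairpins (GENCODE M21, the same letters as in RefSeq) are shown with the identical stretch in capitals, which is the guide with 2 further bases before it in the miR-19b pair (25 bases) and 1 further base in the miR-92a pair (22 bases).
Mir19b-1: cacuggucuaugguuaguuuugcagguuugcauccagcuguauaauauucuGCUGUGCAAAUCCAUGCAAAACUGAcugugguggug
Mir19b-2: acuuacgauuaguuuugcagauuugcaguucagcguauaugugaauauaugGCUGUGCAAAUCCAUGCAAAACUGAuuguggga
Mir92-1: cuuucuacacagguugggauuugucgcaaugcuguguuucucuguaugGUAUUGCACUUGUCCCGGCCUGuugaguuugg
Mir92-2: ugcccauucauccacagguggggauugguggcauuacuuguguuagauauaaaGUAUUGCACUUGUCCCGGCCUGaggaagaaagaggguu
A read lying wholly within the capitals fits both places of its pair equally, and the levels of Mir19b-1 and Mir92-1 are therefore uncertain and can be too low. The other 4 members had no such copy: the longest stretch shared with a hairpin elsewhere was 13 bases for Mir17 and Mir19a and 17 bases for Mir18 and Mir20a. The comparison covered identical stretches among annotated microRNA hairpins only, so it does not show that reads of these 4 genes aligned to 1 place. How many unassigned reads came from any member was not tested, nor was the part of sharing in the members' levels.

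The other genes of the 4 seed groups were then compared, since a target site reads the seed and not the gene. The miR-17 seed also occurs in Mir106b and Mir93 of the Mcm7 locus and in Mir106a and Mir20b of the X-linked cluster. RefSeq gives the miR-17 seed to Mir6383 and the miR-92 seed to Mir367 as well; both had 0 counts in both libraries, were not in the list used here and are named after their values were seen. Mir17 and Mir20a gave 71.0% (interval 70.9 to 71.1%) of the counts of the 6 listed genes with the miR-17 seed in the first replicate and 72.0% (71.8 to 72.2%) in the second. Mir93 gave 14.4 and 14.9% and Mir106b 12.5 and 11.1%, while Mir106a and Mir20b gave 1.22% or less each in both libraries. The 6 genes made up 5.95 ± 0.0450% of all counts.

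Mir18 was nearly alone in its seed group, with 99.0% (98.9 to 99.1%) and 98.7% (98.6 to 98.9%) of the counts of Mir18 and Mir18b in replicates 1 and 2. Mir92-1 gave 62.1% (61.8 to 62.5%) and 63.5% (62.8 to 64.1%) of the counts of the 6 listed genes with the miR-92 seed. Mir25 followed with 18.6 and 18.2% and Mir363 with 9.89 and 9.31%. Mir32, Mir92-2 and Mir92b held 4.60 and 3.99%, 3.14 and 3.48%, and 1.60 and 1.49%. This group as a whole made up 0.549 ± 0.0217% of all counts, about as much as the miR-18 group (0.537 ± 0.0309%). Reads that fit both Mir92-1 and Mir92-2 were credited to neither, so the total of the miR-92 group can be too low.

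By assigned reads the miR-19 seed group was the rarest of the 4, at 0.0103 ± 0.00109% of all counts. Mir19a and Mir19b-1 gave 91.3% (89.7 to 92.6%) and 89.6% (86.4 to 92.1%) of it in replicates 1 and 2, and Mir19b-2 the rest. The cluster's genes thus held most of the assigned counts of each listed seed group, with the share of Mir92-1 in its group the lowest. These counts include both arms of each hairpin, so they do not measure the reads that carry a seed. Because Mir19b-1, Mir19b-2, Mir92-1 and Mir92-2 share their guides in pairs, the shares within these last 2 groups are uncertain. For the same reason the totals of both groups can be too low.

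**Figure D3:**
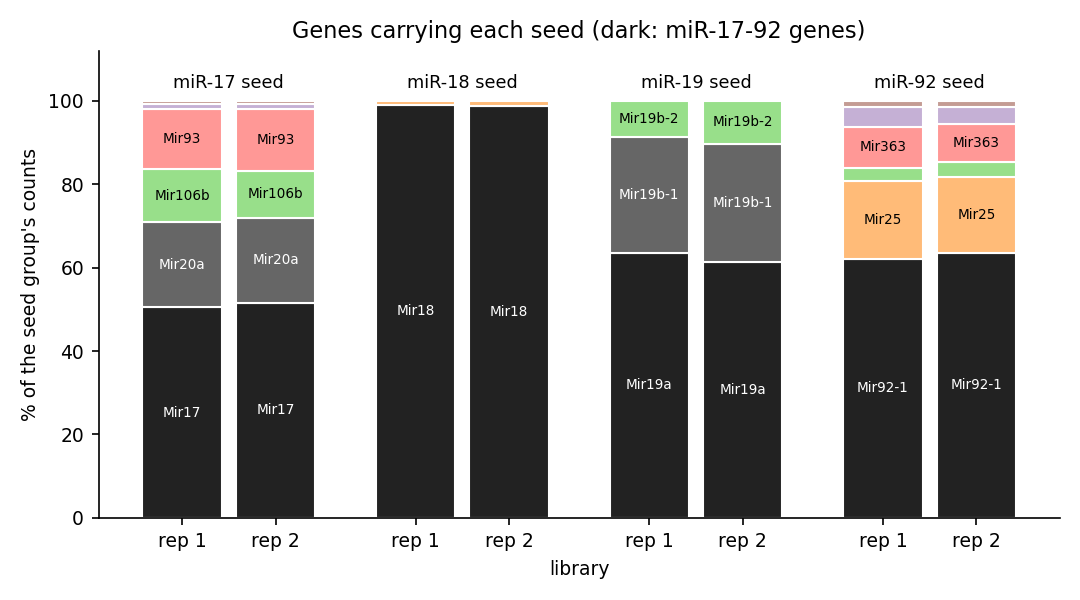
Share of each seed group's counts by gene in replicates 1 and 2, as stacked bars from 0 to 100%; miR-17-92 genes are dark, and the thin bands without a name are Mir106a and Mir20b, Mir18b, and Mir92-2, Mir32 and Mir92b. In replicate 1 the dark part reaches 71.0% for the miR-17 seed, 99.0% for miR-18, 91.3% for miR-19 and 62.1% for miR-92.

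The cluster was also set against its paralogues as transcripts. The miR-106b-25 genes summed to 1.71 and 1.64% of all counts, so that miR-17-92 exceeded them 3.07-fold (log2 1.59 and 1.64 in replicates 1 and 2). The X-linked miR-106a-363 genes summed to 0.199 and 0.198%, and miR-17-92 exceeded them 25.8-fold (log2 4.69 in both libraries). Both ratios were far larger than their gaps between the libraries, 0.06 and 0.003.

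Gene by gene, the excess over the X-linked counterparts was unequal. Mir17 exceeded Mir106a 42.1-fold (log2 5.37 and 5.42), and Mir18 exceeded Mir18b 88.1-fold (6.63 and 6.30). Mir20a exceeded Mir20b 24.9-fold (4.61 and 4.67) and Mir92-1 exceeded Mir92-2 19.0-fold (4.31 and 4.19). Mir19b-1 exceeded Mir19b-2 by only 2.93-fold (1.66 and 1.44). The last 2 pairs share their guides, so reads that fit both places were assigned to neither and these 2 ratios rest on the reads that could be placed. Mir19a has no counterpart in the listed clusters. The guides of the first 3 pairs differ at 1 (Mir106a), 2 (Mir18b) and 2 (Mir20b) positions.

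Against the Mcm7 locus the gap was narrower. Mir17 exceeded Mir106b 4.32-fold (log2 2.01 and 2.21), Mir92-1 exceeded Mir25 3.41-fold (1.74 and 1.80) and Mir20a exceeded Mir93 1.39-fold (0.51 and 0.45). Mir93, at 8616 and 8807 CPM, and Mir106b, at 7489 and 6581 CPM, thus stood above Mir18 and below Mir20a in both libraries. In both clusters that hold a miR-19b gene, it was the lowest member by assigned reads. Mir19b-2 had 126 and 45 counts, or 8.35 and 11.5 CPM, and lay 87.1-fold and 62.0-fold below Mir106a, the leading gene of the X-linked cluster. Reads that fit both miR-19b genes were credited to neither, so these levels can be too low and the gaps too wide.

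**Figure D4:**
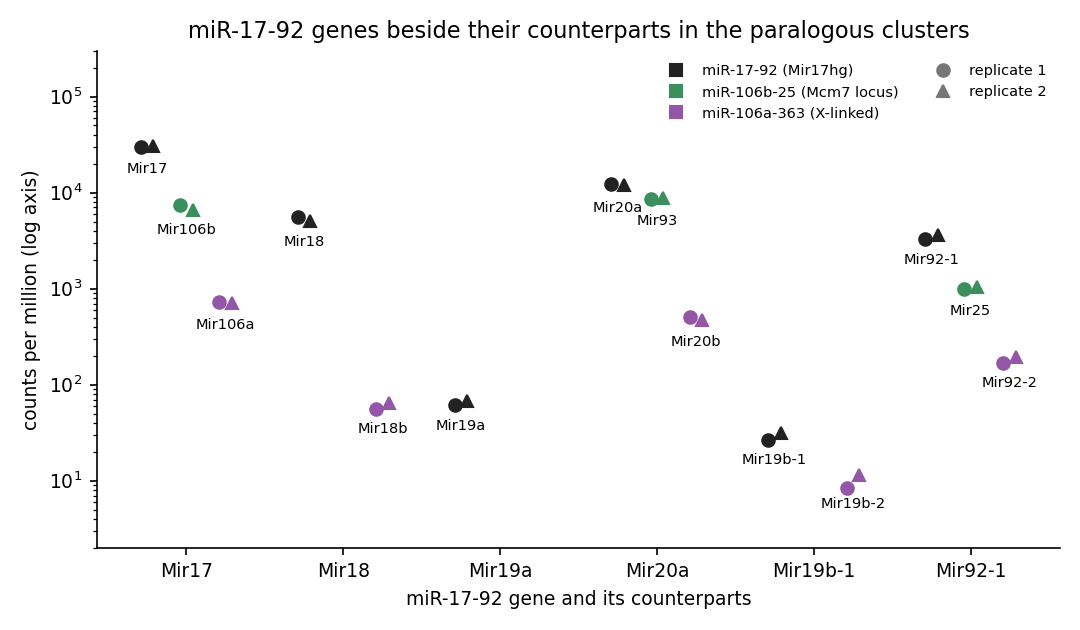
CPM (log axis) of each miR-17-92 gene in black beside its counterparts in miR-106b-25 (green) and miR-106a-363 (purple); circles are replicate 1 and triangles replicate 2. Each black point lies above its counterparts, by 88.1-fold for Mir18 over Mir18b and by 1.39-fold for Mir20a over Mir93.

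The spread between the libraries was small for the abundant members and was within counting error for the miR-19 genes. A two-sided exact binomial test set the 2 counts of a gene against the depths of the libraries, with p-values adjusted by Benjamini-Hochberg over the 363 genes with at least 10 counts in both libraries. It compares these 2 libraries and says nothing of a condition. Of all 363 genes 159 passed at 0.05, or 43.8%, with 108 (29.8%) higher and 51 (14.0%) lower in replicate 2. All 6 members passed the count minimum, and 4 of them passed the test, 2 higher and 2 lower, which with 6 genes is close to that background. Those 4 were the abundant members. The test calls smaller differences at higher counts, so 43.8% over genes of all depths is not a background matched for depth. With library sizes from edgeR's TMM, 40.8% of the genes that passed were higher in replicate 2, against 67.9% with library totals, so the split by direction rests on the scaling.

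Mir18 was lower in replicate 2, with a log2 difference of -0.12 (interval -0.14 to -0.10; adjusted p = 7.55e-26 by the exact binomial test), and Mir92-1 higher at 0.11 (0.08 to 0.14; adjusted p = 5.75e-15 by the exact test). Mir20a was lower by a smaller amount, -0.03 (-0.04 to -0.01; adjusted p = 0.00123 by the exact test). Mir17 was higher by 0.02 (0.007 to 0.03; adjusted p = 0.00135 by the exact test) with library totals and lower, at -0.07 and -0.08, with the TMM and DESeq2 scalings. Under those scalings Mir92-1 stood at 0.03 and 0.02 and did not pass (adjusted p = 0.0813 and 0.288 by the exact test). Mir18 and Mir20a were lower under each of the 3 scalings.

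Mir19a (0.17, interval -0.04 to 0.36) and Mir19b-1 (0.24, interval -0.06 to 0.54) did not pass, with adjusted p = 0.187 and 0.204 by the exact test. Their intervals allow differences larger than those of the abundant members, which the depth of these 2 genes cannot resolve. The median log2 difference of the 6 members was 0.06, beside 0.06 over all 363 genes, and their median absolute difference was 0.12, beside 0.15. The 11 other listed genes of the seed families and paralogous clusters, each detected, had a median of -0.006 and ranged from -0.19 (Mir106b) to 0.47 (Mir19b-2). With library totals 4 of these passed, against 43.8% of all genes: Mir93 and Mir92-2 higher (0.03 and 0.23) and Mir106b and Mir20b lower (-0.19 and -0.09). With TMM 7 passed, 1 higher and 6 lower, and with DESeq2's size factors 6 passed, all 6 lower, against 39.1% and 39.7% of all genes. Mir93 was lower under both (-0.05 and -0.06), so the directions in this list rest on the scaling too.

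**Figure D5:**
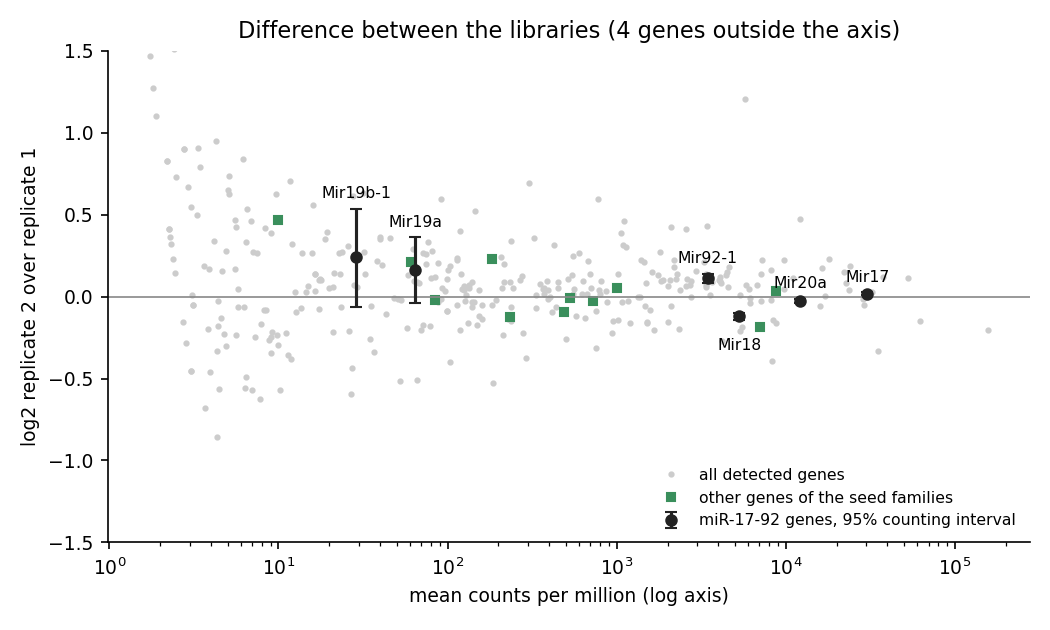
Log2 of replicate 2 over replicate 1 against mean CPM (log axis) for the detected genes in grey, the 11 other listed genes as green squares and the 6 miR-17-92 genes in black with 95% counting intervals; 4 genes lie outside the axis limits of 1.5. The members lie between -0.12 (Mir18) and 0.24 (Mir19b-1), and the intervals of Mir19a and Mir19b-1 include 0.

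The genes nearest to each member in mean level were read off the whole table, over 2 libraries. Mir17 stood between Mir26b (32343 ± 453 CPM) and Mir99a (28946 ± 704 CPM), Mir20a between Mir322 (16019 ± 436 CPM) and Mir200c (12141 ± 2778 CPM), and Mir18 between Mir181d (5347 and 5376 CPM) and Mir30d (4632 ± 409 CPM). Mir92-1 stood between Mir145a (3582 ± 21.6 CPM) and Mir215 (3443 ± 722 CPM), Mir19a between Mir3074-1 (64.9 ± 4.88 CPM) and Mir505 (64.1 ± 5.78 CPM), and Mir19b-1 between Mir1249 (29.1 ± 0.817 CPM) and Mir153 (28.0 ± 0.936 CPM). Of these 12 neighbours, 6 kept their side of the member in both libraries. Mir200c, Mir215, Mir181d, Mir505, Mir1249 and Mir153 did not, so their order relative to the member is within the spread between libraries.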

How the data were processed

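Small RNA (inserts under 30 bases, per the labels) was sequenced from 2 libraries of 1 group. The deposited tables hold whole-number counts per gene; per the accompanying files, the authors aligned reads to mm10 and used GENCODE M4. Aligner, trimming and counter are not given in the sources used here. The columns hold counts for both strands, for the gene's own strand and for the other one, read from the values: the first is the sum of the others in every gene row. Unaligned reads (12.4% and 13.8% in replicates 1 and 2), multiply aligned reads (26.5% and 26.6%) and reads on no gene (2.20% and 2.10%) entered no total. In all, 1894 of the 1973 identifiers matched GENCODE M21 (GRCm38, also called mm10), which gave symbols and positions.

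CPM, shares, Wilson intervals and the exact binomial test were computed with Python 3.11.15 and scipy 1.17.1. The test was checked on counts simulated with counting error only, which is what it assumes. That check says nothing of spread beyond counting error. The quasi-likelihood test of edgeR has no residual degrees of freedom with 1 library a side and was not run. Alternatives were TMM (edgeR 4.0.16), DESeq2 1.42.0 size factors, both strands, other totals, other count filters, thinning of replicate 1 (3.87 times deeper), omission of genes that share 20 bases and omission of each library. Named genes are the members, the 11 other genes of their seed groups and paralogous clusters, the nearest genes in level and fixed markers. Members and lists were chosen with earlier results of these data known. P-values set the difference between these 2 samples against counting error only.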

Additional observations from a re-analysis of the deposited data

How the results depend on the processing

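Levels follow the total they are divided by. The cluster's share of 5.14% became 4.98% with both strands counted, 6.09% without the most abundant gene, Mir143, in the total and 2.90% of every read in the table. Without genes that share 20 bases, the log2 ratio of miR-17-92 was 1.515 to miR-106b-25 and 4.74 to miR-106a-363, and with replicate 1 thinned to the depth of replicate 2 the latter was 4.687 against 4.692. That omission gives no usable share for the miR-19 and miR-92 seeds, because it removes every gene outside or inside the cluster. The difference of Mir17 between libraries reversed to -0.066 (TMM) and -0.076 (DESeq2). After thinning 2 of the 6 members passed the exact test instead of 4, as Mir17 and Mir20a did not. Of the 344 genes tested after thinning, 37.5% passed. Genes called numbered 159 of 363 (43.8%), and 129 to 169 under the 6 alternatives. The number tested differed too, so these counts are not alike in share. The lowest share was 19.8% of 768 genes, with only 1 count required, and the highest 45.2% of 374 with both strands. Of 162 recomputed values, 133 kept their direction and call or moved by less than the spread between libraries. For the numbers of members and genes called, the rule was instead to stay within a set factor of the main number. Leaving out 1 of 2 libraries moves a mean by less than that spread by construction, and leaves no difference between libraries. Counting both strands cannot change shares or ratios among the named genes, as none had reads on the opposite strand. The 133 include such values, fixed in advance, and so do not measure how stable the results are. No paired analysis was possible because there is 1 group. With 399 and 122 counts, Mir19b-1 limits what depth can resolve.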
